A study of Homo sapiens with 12 samples.

Results

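The integrated stress response is followed here through 10 genes: the transcription factors ATF4, ATF3, DDIT3, CEBPB and NUPR1, and the effectors TRIB3, CHAC1, SESN2, DDIT4 and PPP1R15A. They were chosen by name as regulators and signalling targets of this response, with their measured values in all 4 groups already in view. Their knockout differences in both lines, the contrast between those differences and their levels in the wild-type lines are therefore described without a test. All 10 were found among the 22650 gene symbols listed in any library, and all 10 passed the filter on low values (1 FPKM or more on average in 1 line or both). FPKM is the number of sequenced fragments scaled to transcript length and library total, so it is a level per length. The libraries come from Panc1 and MiaPaCa2, established human pancreatic ductal adenocarcinoma cell lines, each as wild-type cells and as cells with a knockout of ASAP2, an Arf GTPase-activating protein. No other treatment is given. Each of the 4 groups has 3 libraries, 12 in all.

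In the integrated stress response, kinases that sense misfolded protein, missing amino acids, double-stranded RNA or haem shortage phosphorylate the initiation factor eIF2. Most translation then slows, while the mRNA of ATF4 is translated more, because short upstream reading frames in its leader no longer hold ribosomes back. ATF4 pairs with CCAAT/enhancer-binding proteins such as CEBPB and CEBPG and switches on genes for amino acid supply, tRNA charging, redox balance and cell death. In pancreatic cancer cells the response is known for its part in survival under poor nutrient supply. RNA levels do not measure eIF2 phosphorylation or ATF4 protein.

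ASAP2 itself was lower in Panc1 knockout (13.8 FPKM) than in Panc1 wild-type libraries (36.9), a log2 difference of -1.36 (limma, Benjamini-Hochberg adjusted p = 1.5e-08). In MiaPaCa2 it was 12.3 against 13.5 FPKM (log2 difference -0.13, limma adjusted p = 0.197), so its RNA level does not check the MiaPaCa2 knockout labels. "Knockout" names the libraries labelled so. The sources used here do not give how the knockout was made, whether each line is 1 clone, or whether the 3 libraries of a group are separate cultures. The p-values therefore cover the spread among these libraries, which may be technical. FPKM summed to 360765 to 392610 per library, and same-group libraries correlated at r = 0.9936 to 0.9971 across genes. Read depth is unknown. Of 11 ductal epithelial markers 7 reached 1 FPKM in some library, KRT8, KRT18, KRT19 and SOX9 among them. EPCAM was at 0 in all MiaPaCa2 libraries, listed so or missing and taken as 0, and CFTR was near 0 in both lines. The defining leukocyte and endothelial markers PTPRC, PECAM1 and VWF were near 0 in every group, although 2 of 6 leukocyte and 2 of 9 fibroblast and endothelial markers reached 1 FPKM. The summed ductal list ran at 1279 to 1317 FPKM in wild-type and 1197 to 1306 in knockout Panc1, and at 1283 to 1333 and 937 to 968 in MiaPaCa2. The summed leukocyte list ran at 171 to 178 FPKM in wild-type and 161 to 166 in knockout Panc1, and at 51.1 to 64.0 and 130.2 to 155 in MiaPaCa2, where LYZ went from 28.7 to 122 FPKM and CD68 from 26.7 to 18.7. The summed fibroblast and endothelial list ran at 2270 to 2435 FPKM in wild-type and 2958 to 3097 in knockout Panc1. In MiaPaCa2 it ran at 2409 to 2483 and 1905 to 2055. COL1A1, which went from 89.3 to 314 FPKM in Panc1, was a small part of the sums there. The part of these shifts in the results was not tested. In bulk RNA, fewer cells with a transcript and less of it per cell cannot be told apart.

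ATF4 and its partners bind a composite element of CCAAT/enhancer-binding protein and ATF half-sites. Its core, TGATGNAA, and the cAMP response element TGACGTCA, which other ATF and CREB factors bind, were searched on both strands of the RefSeq promoters (build GRCh38.p14, 300 bases around each start). Of the 10 genes 9 matched the promoter table, all but NUPR1. The core lay in 2 of the 9 (ATF3 and CHAC1), against 4.46% of all 27305 genes in the table, and the cAMP response element in 1 of 9 (PPP1R15A), against 2.25%. A gene counts if any of its promoters matches. The 9 genes have 15 promoters and all genes 35116, so the 9 have more promoters each. Of all promoters 3.62% held the core and 1.85% the cAMP response element. The form TGATGCAA, which is contained in the first motif, was found in CHAC1, against 1.08% of genes, and the endoplasmic reticulum stress element in none of the 9, against 0.0916%. The 250 bases before the start of the matching promoter are shown for these 3 genes because they hold the only matches. All 3 lie on the plus strand, and the match is in capitals:
CHAC1, chr15:40953221-40953470: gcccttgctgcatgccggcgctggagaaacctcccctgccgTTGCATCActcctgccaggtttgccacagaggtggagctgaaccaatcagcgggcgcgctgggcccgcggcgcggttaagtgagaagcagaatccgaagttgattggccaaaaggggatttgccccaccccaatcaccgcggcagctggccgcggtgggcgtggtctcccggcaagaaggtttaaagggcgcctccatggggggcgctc
ATF3, chr1:212565157-212565406: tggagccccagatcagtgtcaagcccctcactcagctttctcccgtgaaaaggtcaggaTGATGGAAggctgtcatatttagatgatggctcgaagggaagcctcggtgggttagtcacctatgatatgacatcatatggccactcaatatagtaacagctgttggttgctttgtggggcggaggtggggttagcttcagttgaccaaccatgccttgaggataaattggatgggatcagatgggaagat
PPP1R15A, chr19:48872171-48872420: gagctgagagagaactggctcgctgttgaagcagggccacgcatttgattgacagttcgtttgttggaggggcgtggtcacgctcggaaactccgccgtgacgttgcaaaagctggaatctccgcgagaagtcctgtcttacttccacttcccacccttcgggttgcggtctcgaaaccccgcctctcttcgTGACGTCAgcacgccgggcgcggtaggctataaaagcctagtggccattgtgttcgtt
In CHAC1 the capitals are the core read on the minus strand, with the first base 209 bases before the start. The match begins 191 bases before the start in ATF3 and 58 in PPP1R15A. These are letter matches and not measured binding, and a window without a match says nothing about the factor.

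ATF4, the central factor, stood at 109.9, 109.5 and 110.7 FPKM in the 3 wild-type Panc1 libraries and at 265.3, 246.6 and 217.4 in the knockout libraries. In MiaPaCa2 the wild-type libraries had 163.3, 134.4 and 138.2 FPKM and the knockout libraries 196.6, 215.1 and 192.1. The groups did not overlap in either line, and wild-type Panc1 was the lowest and knockout Panc1 the highest of the 4. On the log2(FPKM + 1) scale, used for all differences below and understating those of low genes, the knockout difference was 1.13 (SE 0.08) in Panc1 and 0.47 (SE 0.08) in MiaPaCa2. The gene lies on chromosome 22 (39915700 to 39918688, plus strand, GRCh37, as are all positions below), and 4 annotated pseudogenes carry its name. The counting of reads that fit several places is not stated, so a share of its reads may be uncertain.

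ATF3, a stress-induced repressor and activator of the same family (chromosome 1, 212738676 to 212794119), had the lowest mean of the 10 in knockout MiaPaCa2 libraries, 3.89 FPKM. Panc1 wild-type libraries had 2.90, 3.37 and 3.81 FPKM and knockout libraries 8.92, 7.07 and 6.07, with no overlap (log2 difference 0.93, SE 0.14). In MiaPaCa2 the wild-type values of 2.56, 3.32 and 3.19 overlapped the knockout values of 3.66, 4.86 and 3.14 (log2 difference 0.27, SE 0.14). DDIT3, which encodes CHOP, a factor of stress-induced cell death, was higher in the knockout libraries of both lines. It went from 20.7, 18.5 and 19.9 to 39.6, 35.9 and 27.9 FPKM in Panc1 (log2 difference 0.76, SE 0.11), and from 10.8, 11.5 and 12.3 to 21.9, 22.8 and 18.7 in MiaPaCa2 (0.82, SE 0.11). None of the knockout libraries reached down into the wild-type range of its line. The gene (chromosome 12, 57910371 to 57915520, minus strand) overlaps MARS1 and MBD6 on the other strand, and reads of the pairs cannot be told apart where strand was not used. MARS, the older symbol of MARS1, also rose in Panc1, as given below.

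CEBPB, a partner of ATF4 at the composite element (chromosome 20, 48807367 to 48809205), had 15.1, 12.8 and 15.8 FPKM in wild-type and 40.3, 39.6 and 34.2 in knockout Panc1 libraries. The MiaPaCa2 libraries had 17.8, 17.0 and 16.7 FPKM without and 28.8, 35.6 and 32.1 with the knockout. The groups were separate in both lines, with log2 differences of 1.33 (SE 0.09) and 0.87 (SE 0.09). CEBPB-AS1, an antisense RNA that overlaps it, moved with it (mean 3.75 to 9.43 FPKM in Panc1 and 4.61 to 8.08 in MiaPaCa2), and without strand their reads cannot be told apart. NUPR1, a small chromatin-associated stress protein first known from pancreatitis (chromosome 16, 28544029 to 28550329, minus strand), differed most between the wild-type lines. Panc1 libraries went from 11.1, 12.6 and 10.01 to 26.1, 22.1 and 19.6 FPKM (log2 difference 0.95, SE 0.23). MiaPaCa2 libraries went from 3.46, 1.66 and 1.38 to 3.48, 6.52 and 3.87 FPKM, where the lowest knockout value lay only just above the highest wild-type value (0.85, SE 0.23). Its standard error was the largest of the 10.

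**Figure D1:**
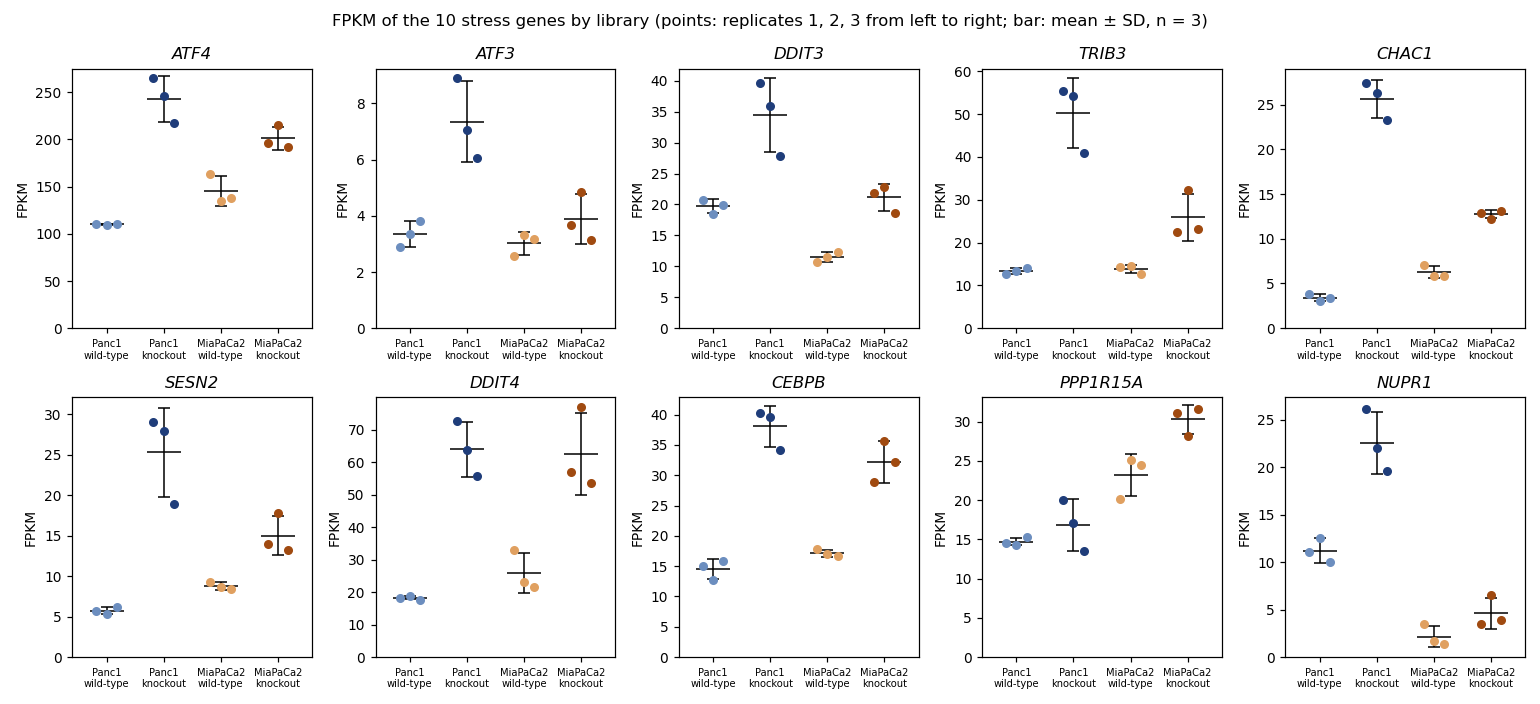
FPKM of each of the 10 stress genes (linear y axes from 0) in every library of the 4 groups; points are libraries 1, 2 and 3 from left to right, and bars are the mean ± SD, n = 3. Knockout points lie above the wild-type points of their line except for PPP1R15A in Panc1 and ATF3 in MiaPaCa2, and for NUPR1 in MiaPaCa2 by 3.48 against 3.46 FPKM only.

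Among the effectors, CHAC1, which breaks down glutathione, showed the largest difference of the 10 in Panc1. Its values (chromosome 15, 41245160 to 41248710) were 3.86, 3.06 and 3.36 FPKM in wild-type and 27.4, 26.3 and 23.3 in knockout Panc1 libraries, a ratio of means of 7.49. MiaPaCa2 wild-type libraries had 7.06, 5.86 and 5.85 FPKM and knockout libraries 12.9, 12.2 and 13.1, a ratio of 2.04. The log2 differences were 2.59 (SE 0.08) and 0.92 (SE 0.08), and both pairs of groups were separate. TRIB3, a pseudokinase that binds AKT and ATF4 and feeds back on the response (chromosome 20, 343479 to 378203), overlapped between the wild-type lines. It went from 12.6, 13.3 and 14.01 to 55.5, 54.3 and 40.8 FPKM in Panc1 (log2 difference 1.83, SE 0.13), and from 14.3, 14.6 and 12.8 to 22.4, 32.3 and 23.2 in MiaPaCa2 (0.84, SE 0.13). All knockout libraries were above all wild-type libraries of their line.

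SESN2 and DDIT4 restrain the growth kinase complex mTORC1, the first as a leucine sensor that acts through GATOR2, the second (REDD1) through the TSC complex. SESN2 (chromosome 1, 28586029 to 28609002) stood at 5.65, 5.36 and 6.20 FPKM in wild-type and 29.0, 27.9 and 18.9 in knockout Panc1 libraries (log2 difference 1.94, SE 0.14). In MiaPaCa2 it stood at 9.31, 8.60 and 8.41 against 13.99, 17.8 and 13.2 FPKM (0.70, SE 0.14). DDIT4 (chromosome 10, 74033678 to 74035794) was the one gene whose MiaPaCa2 difference exceeded 1. Panc1 libraries went from 18.3, 18.7 and 17.7 to 72.6, 63.7 and 55.7 FPKM (1.75, SE 0.15), and MiaPaCa2 libraries from 32.9, 23.2 and 21.6 to 57.0, 77.0 and 53.6 (1.25, SE 0.15). For both genes the groups were separate in each line, and the knockout groups of the lines overlapped for DDIT4.

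PPP1R15A, which encodes GADD34, the stress-induced subunit that brings protein phosphatase 1 to eIF2 and ends the response, had the smallest Panc1 difference of the 10. Its values there (chromosome 19, 49375469 to 49379316) were 14.5, 14.3 and 15.3 FPKM in wild-type and 20.1, 17.0 and 13.5 in knockout libraries. The ranges overlapped, and knockout library 3 lay below all 3 wild-type libraries (log2 difference 0.17, SE 0.11). In MiaPaCa2 the libraries had 20.2, 25.0 and 24.4 against 31.1, 28.2 and 31.6 FPKM, without overlap (0.37, SE 0.11).

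By the fit's threshold, an adjusted p below 0.05 over 13340 genes, 9 of the 10 were higher in Panc1 knockout and none lower, where 21.8% of all genes tested were called higher and 41.6% lower. In MiaPaCa2 9 were called higher and none lower, against 17.8% and 16.3% of all genes. All 3 knockout libraries exceeded all 3 wild-type libraries for 9 genes in Panc1 (24.7% of all genes tested) and for 9 in MiaPaCa2 (23%). Because these contrasts were known when the genes were chosen, nothing is read from these shares. The median difference over the 10 was 1.23 in Panc1, where that of all genes was -0.10, and 0.83 in MiaPaCa2, where it was 0.01. Relative to all genes this makes 1.33 and 0.82.

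**Figure D2:**
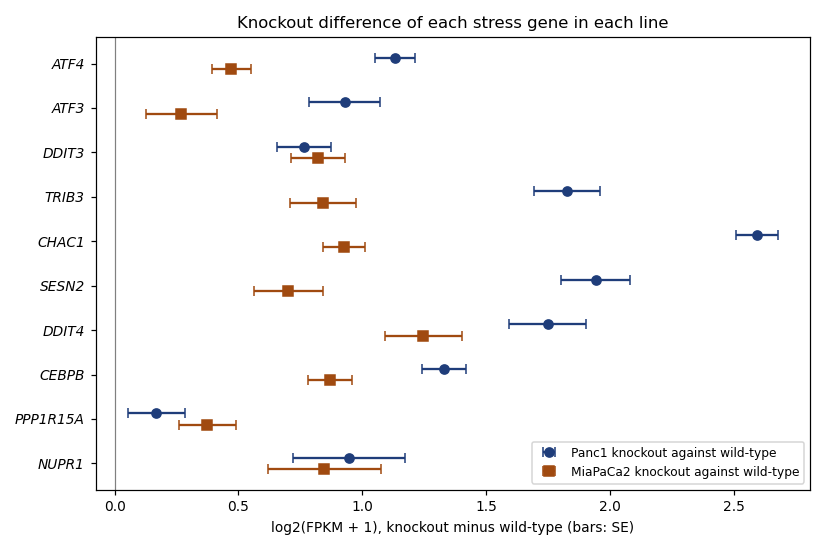
Knockout minus wild-type difference of each of the 10 genes on the log2(FPKM + 1) scale (x axis) in Panc1 (circles) and MiaPaCa2 (squares); bars are the SE from the limma fit. CHAC1 has the largest Panc1 value, 2.59, and the line values lie close together for DDIT3 and NUPR1.

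The Panc1 difference minus the MiaPaCa2 difference, which shares its libraries with both, was 1.67 (SE 0.12) for CHAC1, 1.24 (SE 0.20) for SESN2 and 0.98 (SE 0.19) for TRIB3. It was 0.66 for ATF4 (SE 0.11), 0.66 for ATF3 (SE 0.20), 0.50 for DDIT4 (SE 0.22) and 0.46 for CEBPB (SE 0.13). For these 7 genes the Panc1 difference was the larger one. The value was 0.10 for NUPR1 (SE 0.32), -0.06 for DDIT3 (SE 0.15) and -0.21 for PPP1R15A (SE 0.16), all within 2 standard errors of 0. By the threshold 6 of the 10 were called higher, where 20% of all genes were (37.4% were called lower), and this too is a description. DDIT4, not called, passed under median-ratio scaling (0.64), array weights (0.49) and the replicate block (0.50), and without Panc1 knockout library 3 (0.60), MiaPaCa2 wild-type library 3 (0.62) or MiaPaCa2 knockout library 2 (0.66).

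In Panc1 knockout the libraries kept a common order over these genes, which was less complete in the other groups. Knockout library 1 of Panc1 was the highest of its group in 10 of 10 genes and library 3 the lowest in 10 of 10, while over all genes tested library 1 was highest in 47% and library 3 lowest in 36%. In MiaPaCa2 knockout library 2 was highest in 8 of 10, all but CHAC1 and PPP1R15A, against 35.1% of all genes. Wild-type library 1 of MiaPaCa2 was highest in 6 of 10, against 41.5%. In wild-type Panc1 library 3 was highest in 6 of 10, against 34.1%, and library 2 lowest in 6 of 10, against 35%. The genes therefore share library-to-library deviations, most clearly in Panc1 knockout, and are not independent readings of the knockout.

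**Figure D3:**
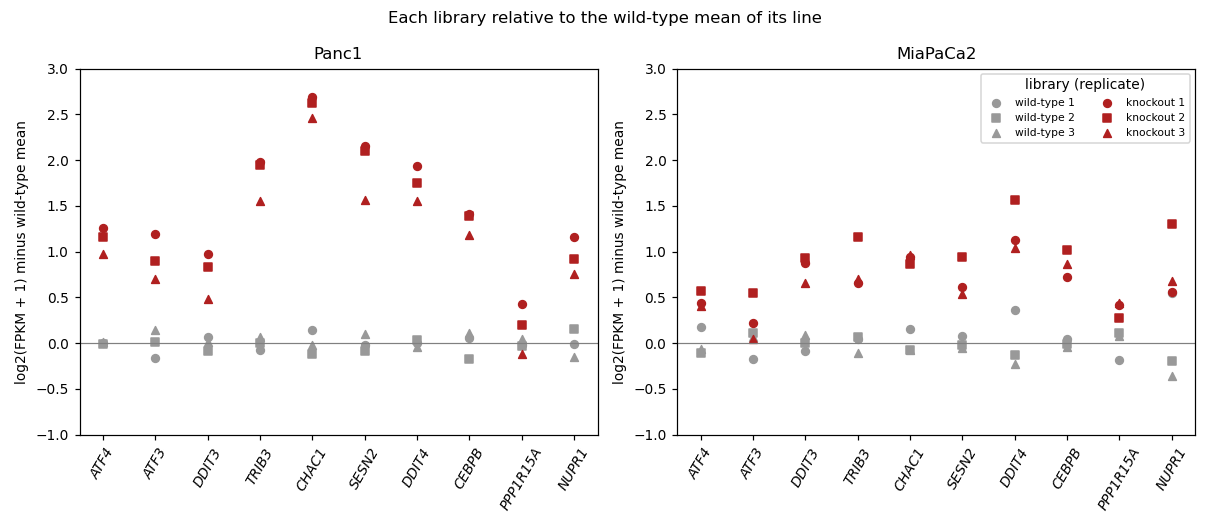
Each library's log2(FPKM + 1) minus the wild-type mean of its line (y axis) for the 10 genes (x axis), with grey wild-type and red knockout libraries and the marker shape giving the library number. In Panc1 the knockout circles (library 1) lie on top and the triangles (library 3) at the bottom for every gene.

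The wild-type lines are also compared without a test, since the values of these libraries were in view when the genes were chosen. By the threshold Panc1 was called higher for 2 of the 10 and lower for 6, where 41.8% and 40.9% of all genes tested were called. NUPR1 was 11.2 ± 1.29 FPKM in Panc1 and 2.17 ± 1.13 in MiaPaCa2 (mean ± SD, n = 3 libraries each), a ratio of means of 5.18. The log2 difference, Panc1 minus MiaPaCa2, was 0.73 (SE 0.11) for DDIT3. It was -0.71 (SE 0.08) for CHAC1, -0.62 (SE 0.11) for PPP1R15A, -0.54 (SE 0.14) for SESN2 and -0.39 (SE 0.08) for ATF4. The 3 libraries of one line did not overlap those of the other for any of these 6. The share of all genes tested that are separate between the wild-type lines was not computed. Nothing is therefore read from such separations, here or in the next paragraph.

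DDIT4 (-0.46, SE 0.15) and CEBPB (-0.23, SE 0.09) were separate between the lines too. The DDIT4 call was lost without wild-type library 1 of MiaPaCa2 (-0.28). That of CEBPB was lost with no filter (-0.23) and with libraries rescaled to 1 sum (-0.14). It was also lost without wild-type library 2 of Panc1 (-0.14) and without wild-type library 1 (-0.20) or 2 (-0.23) of MiaPaCa2. ATF3 (0.11, SE 0.14) and TRIB3 (-0.05, SE 0.13) overlapped between the lines. Ordered by mean level, the wild-type lines share ATF4 at the top, at 110.1 ± 0.578 FPKM in Panc1 and 145.3 ± 15.7 in MiaPaCa2. In wild-type Panc1 CHAC1 and ATF3 stood at the bottom with means of 3.43 and 3.36 FPKM and overlapping libraries, and in wild-type MiaPaCa2 NUPR1 and ATF3 did, at 2.17 and 3.03, overlapping as well.

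Across the 12 libraries, which share groups and lines, Pearson's r between pairs of the 10 genes ran from -0.68 to 0.98 over 45 pairs on the log2(FPKM + 1) scale. Without NUPR1 and PPP1R15A the 28 remaining pairs ran from 0.62 to 0.98. These are descriptions over 4 group levels. Among 7285 genes that averaged 5 FPKM or more in some group and had a log2 span of at least 0.5 between groups, the 5 most like ATF4 were SESN2 (r = 0.98), RPL15 (0.98), CHAC1 (0.98), CEBPB-AS1 (0.97) and PNRC1 (0.97). The 5 most like CHAC1 were RPL32 and SESN2 (both 0.98), ATF4 (0.98), SCD5 (0.97) and SLC3A2 (0.97). RPL15 followed the order of ATF4 at a smaller span, with means of 188 FPKM in wild-type and 289.8 in knockout Panc1 and 224 and 269 in MiaPaCa2. NUPR1 (r = 0.34 with ATF4) ranked 699th and PPP1R15A (0.32) 747th.

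Downstream of ATF4, genes of amino acid synthesis, import and tRNA charging were higher in Panc1 knockout almost throughout. Of 34 such genes, all tested, 30 rose, none fell and 4 did not pass (SLC38A2, ALDH18A1, EPRS and LARS), where 21.8% of all genes rose and 41.6% fell, with a median log2 difference of 0.84 (all genes -0.10). PCK2, the mitochondrial phosphoenolpyruvate carboxykinase, rose from 7.01 ± 0.238 to 29.6 ± 4.11 FPKM (log2 difference 1.92, limma adjusted p = 1.2e-08). The neutral amino acid exchangers SLC1A4 (2.85 to 10.95 FPKM, log2 difference 1.63, adjusted p = 1.5e-08) and SLC7A5 (73.8 to 221, 1.57, 1.6e-09) followed, as did asparagine synthetase ASNS (37.5 to 111, 1.53, 1.4e-07). The serine pathway enzymes PHGDH (1.44, 2.7e-09) and PSAT1 (1.07, 1.1e-07) and the tRNA synthetases AARS (1.05, 3.8e-09), SARS (1.003, 3.9e-09) and MARS (0.80, 1.4e-07) also rose. Among the 30, ALDH1L2 (0.664 to 2.67 FPKM) passed the filter only through the Panc1 knockout libraries, where it is high, so its rise is a description. The list was written with earlier results of these data known, so its direction is not independent evidence.

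In MiaPaCa2 knockout 10 of the same 34 rose, 4 fell and 20 did not pass, where 17.8% of all genes rose and 16.3% fell, with a median of 0.12 (all genes 0.01). The 4 falls became 7 with array weights. The alanine transaminase GPT2 (11.4 ± 1.04 to 17.3 ± 1.02 FPKM, log2 difference 0.57, limma adjusted p = 5.1e-05), the cystine importer SLC7A11 (0.49, 0.00829) and ASNS (0.38, 0.0133) rose, the last not passing without wild-type library 2 (0.35, 0.0519) or 3 (0.35, 0.0508). The tryptophanyl-tRNA synthetase WARS fell from 255 to 132 FPKM (-0.94, adjusted p = 2.9e-06), and the folate enzyme MTHFD2 (-0.36, 0.0063) and the proline enzyme PYCR1 (-0.21, 0.00191) fell as well. Tested directly, the Panc1 difference was above the MiaPaCa2 difference for 25 of the 34 (20% of all genes) and below it for none (37.4% of all genes, and 1 of the 34 with array weights or without MiaPaCa2 knockout library 2), by 1.82 for SLC1A4 (limma adjusted p = 2.6e-07), 1.79 for PCK2 (8.5e-07) and 1.60 for SLC7A5 (5.7e-08). In the wild-type lines 26 of the 34 were lower in Panc1 and 4 higher, where 40.9% and 41.8% of all genes were, with a median of -0.67. PCK2 was -2.25 and WARS -2.91 on the log2 scale there. The contrast between the wild-type lines shares its libraries with the knockout differences of both lines. The lower wild-type levels and the larger Panc1 differences are therefore not separate observations.

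**Figure D4:**
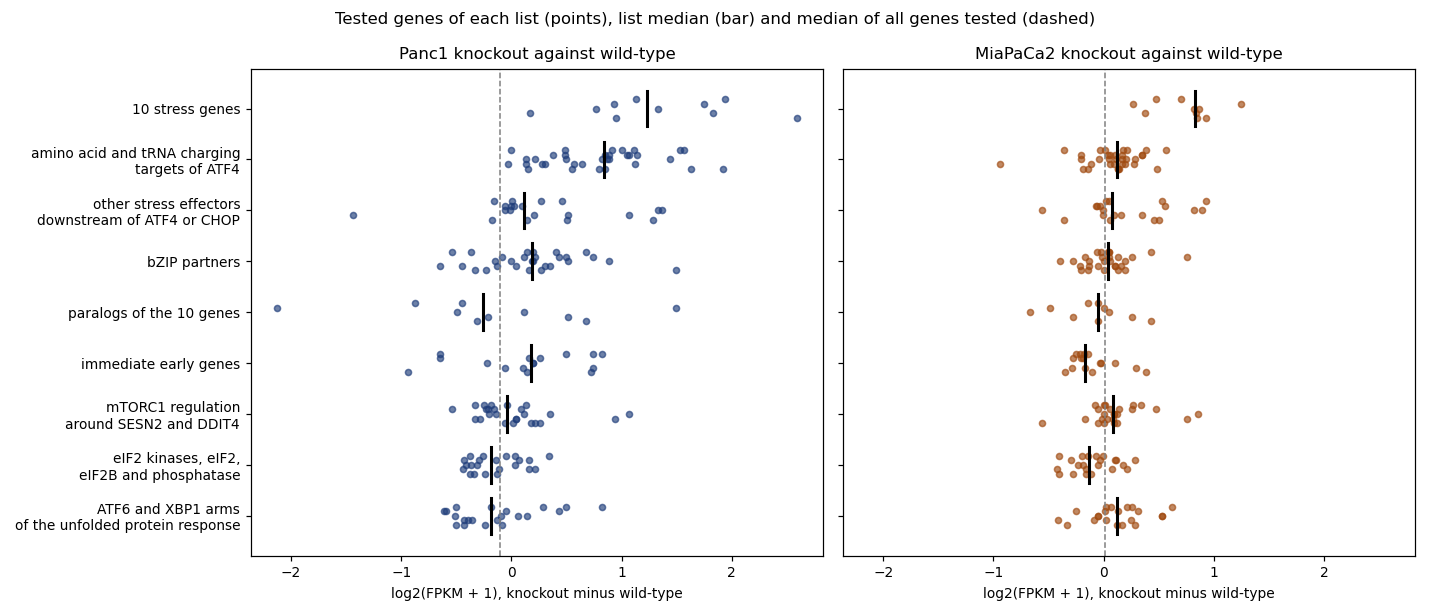
Knockout minus wild-type log2(FPKM + 1) difference (x axis) of every tested gene of each list (points) in Panc1 and MiaPaCa2, with the list median (bar) and the median of all 13340 genes (dashed line). The amino acid and tRNA charging list has its median at 0.84 in Panc1 and 0.12 in MiaPaCa2, while the eIF2 list has its median below 0 in both.

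Of 22 other effectors downstream of ATF4 or CHOP, 20 were tested, and 9 rose and 2 fell in Panc1 (all genes 21.8% and 41.6%), while 8 rose and 2 fell in MiaPaCa2 (17.8% and 16.3%), with medians of 0.12 and 0.08. With a filter of 5 FPKM the 9 rises in Panc1 became 5. The 2 falls became 1 under median-ratio scaling, under quantile normalization and with genes above 0 in all libraries. They also became 1 without Panc1 wild-type library 2 or 3 or knockout library 3. The stress cytokine GDF15 rose in both, from 12.98 ± 0.768 to 35.6 ± 7.89 FPKM in Panc1 (log2 difference 1.37, limma adjusted p = 3.7e-06) and from 0.110 ± 0.0494 to 1.07 ± 0.283 in MiaPaCa2 (0.89, 4.5e-04). Its MiaPaCa2 libraries averaged below 1 FPKM, so GDF15 passed the filter through Panc1 only and its MiaPaCa2 values are near the floor. ADM2, a peptide hormone of the adrenomedullin family, went from 0.96 to 3.93 FPKM in Panc1 (log2 difference 1.33). The lysosomal membrane protein LAMP3 went from 0.375 to 2.35 FPKM there (1.29). Both are counted among the 9 rises but passed the filter only through the Panc1 knockout libraries, where they are high. They are therefore described without a test. In MiaPaCa2 the ADM2 mean was 0.0037 FPKM in wild-type, and it was 0 in knockout libraries, listed so or missing. VEGFA (0.93, limma adjusted p = 5.2e-05), NDRG1 (0.82, 3.2e-05) and the autophagy receptor SQSTM1 (0.56, 1.0e-04) rose in MiaPaCa2, and their Panc1 differences of -0.16, -0.01 and -0.01 did not pass. The difference between the lines passed for all 3, at -1.09 (8.6e-05), -0.82 (1.6e-04) and -0.57 (4.8e-04). RND3 fell in Panc1 from 27.4 to 9.50 FPKM (-1.44, limma adjusted p = 1.1e-08), and TXNIP fell in MiaPaCa2 (-0.56, 4.9e-04).

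Upstream, a list of 22 genes holds the eIF2 kinases, eIF2, eIF2B and the eIF2 phosphatase. In it 3 rose and 12 fell in Panc1, where 21.8% and 41.6% of all genes did (list median -0.19, all genes -0.10), and 2 rose and 9 fell in MiaPaCa2, where 17.8% and 16.3% did (list median -0.13, all genes 0.01). The 3 rises became 6 under median-ratio scaling, and the 2 in MiaPaCa2 became 4 without its wild-type library 1. EIF2AK3, the kinase PERK of the endoplasmic reticulum, fell in Panc1 from 2.94 ± 0.212 to 1.97 ± 0.0998 FPKM (log2 difference -0.41, limma adjusted p = 2.0e-04), and its MiaPaCa2 value was 0.18 (0.0638). EIF2AK4, the amino acid sensor GCN2, rose slightly in Panc1 (0.22, limma adjusted p = 0.00386), with 0.08 (0.312) in MiaPaCa2. DELE1, which relays mitochondrial stress to the kinase HRI, went opposite ways, -0.44 in Panc1 (limma adjusted p = 1.1e-05) and 0.22 in MiaPaCa2 (0.00616), and so did DNAJC3, an inhibitor of PERK (-0.43, 4.2e-04, and 0.29, 0.0134). The eIF2B subunit EIF2B2 fell in MiaPaCa2 (-0.43, 1.5e-04). PPP1R15B, the constitutive counterpart of PPP1R15A, fell in Panc1 (-0.31, limma adjusted p = 0.00152).

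Of 14 paralogs of the 10 genes 10 were tested. In Panc1 3 rose and 6 fell (all genes 21.8% and 41.6%), and in MiaPaCa2 2 rose and 3 fell (17.8% and 16.3%), with medians of -0.26 and -0.05. CEBPG, a partner of ATF4, rose in both lines, from 14.7 to 24.3 FPKM (log2 difference 0.68, limma adjusted p = 2.4e-05) and from 12.3 to 17.0 (0.43, 0.0024). JDP2, the nearest relative of ATF3, rose in Panc1 from 2.47 to 8.75 FPKM (1.49, 3.3e-07), its MiaPaCa2 value was 0.01 (0.981), and the difference between the lines passed (1.48, 1.1e-05). While TRIB3 was higher, TRIB2 fell from 10.7 ± 0.826 to 1.69 ± 0.229 FPKM in Panc1 (-2.13, limma adjusted p = 8.2e-10) and from 23.4 to 16.4 in MiaPaCa2 (-0.49, 5.3e-04), and TRIB1 fell in Panc1 (-0.87, 3.7e-06). CHAC2, the constitutive relative of CHAC1, fell in both lines (-0.49, 3.0e-04, and -0.67, 1.1e-04). SESN1 went opposite ways, -0.21 in Panc1 (limma adjusted p = 0.0051) and 0.26 in MiaPaCa2 (0.00362), but the first did not pass under median-ratio scaling (-0.12, 0.0815) or quantile normalization (-0.07, 0.353). ATF5 fell in Panc1 from 66.0 to 47.9 FPKM (-0.45, 1.0e-06). CEBPD rose in Panc1 (0.51, 2.1e-04) and fell in MiaPaCa2 (-0.28, 0.0235), a fall that did not pass without wild-type library 2 (-0.24, 0.0922), knockout library 2 or 3 (both -0.26), or the filter. CEBPA was at 0.141 FPKM in wild-type Panc1 against 6.75 in wild-type MiaPaCa2 (-2.77). It passed the filter through MiaPaCa2 only, where it is high, so this difference is described without a test.

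Of 29 tested basic leucine zipper factors that can pair with these proteins, 16 rose and 7 fell in Panc1 (all genes 21.8% and 41.6%), and 4 rose and 3 fell in MiaPaCa2 (17.8% and 16.3%), with medians of 0.19 and 0.04. The 4 rises became 8 with array weights. Several lists share genes, so their counts are not separate: CEBPG, CEBPA, CEBPD, ATF5 and JDP2 are also among the paralogs, JUNB among the immediate early genes and XBP1 among the unfolded protein genes. JUND rose in Panc1 (log2 difference 0.88, limma adjusted p = 3.1e-06) and fell in MiaPaCa2 (-0.40, 0.00425), JUNB rose in Panc1 (0.74, 3.4e-06), and MAFF rose most in MiaPaCa2 (0.76, 3.0e-05). Of 16 immediate early genes tested, 9 rose and 3 fell in Panc1 (all genes 21.8% and 41.6%), and 2 rose and 5 fell in MiaPaCa2 (17.8% and 16.3%), with medians of 0.18 and -0.17. KLF2 (0.82, 4.8e-06) and IER2 (0.74, 1.2e-06) rose in Panc1 and EGR1 fell there (-0.94, limma adjusted p = 1.3e-04). The counts of falls in MiaPaCa2 are unsteady: array weights raised them from 5 to 10 among immediate early genes and from 3 to 9 among the leucine zipper factors. Each became 1 without wild-type library 2, and the first also without wild-type library 3. Rises of immediate early genes in Panc1 became 5 with libraries rescaled to 1 sum, and falls became 6 without knockout library 1 and 5 without 2 or 3.

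The ATF6 and XBP1 arms of the unfolded protein response run beside the PERK and ATF4 arm. Of 21 of their genes 4 rose and 12 fell in Panc1 (median -0.18), where 21.8% and 41.6% of all genes did, and 9 rose and 3 fell in MiaPaCa2 (median 0.12), where 17.8% and 16.3% did. The difference between the lines passed below 0 for 13 (37.4% of all genes) and above 0 for 2 (20%), or for 7 and 5 under median-ratio scaling. HERPUD1, a factor of protein removal from the endoplasmic reticulum, rose in both, from 9.98 ± 0.521 to 18.4 ± 0.774 FPKM (log2 difference 0.82, limma adjusted p = 2.1e-07) and from 20.2 to 31.7 (0.62, 1.0e-05). XBP1 rose in both as well (0.50, 5.4e-06, and 0.26, 0.00276). The chaperones HSP90B1 (-0.61, limma adjusted p = 3.6e-04) and PDIA6 (-0.59, 3.8e-06) fell in Panc1, and the co-chaperone DNAJB9 fell there (-0.51, 2.9e-04) and rose in MiaPaCa2 (0.53, 7.6e-04). HSPA5, the chaperone BiP, rose by 0.29 (limma adjusted p = 7.7e-05) and 0.21 (0.00203), and is named after its values were seen.

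Around mTORC1, on which SESN2 and DDIT4 act, 6 of 25 tested genes rose and 9 fell in Panc1, near the 21.8% and 41.6% of all genes, and 7 rose and 2 fell in MiaPaCa2 (17.8% and 16.3%), with medians of -0.04 and 0.09. The Panc1 balance turns with the scaling, since 10 rose under median-ratio scaling and 4 fell under quantile normalization. The translation repressor EIF4EBP1 rose in Panc1 from 33.6 ± 1.83 to 71.6 ± 3.61 FPKM (log2 difference 1.07, limma adjusted p = 1.6e-08), at 0.09 (0.23) in MiaPaCa2. The arginine sensor CASTOR1 rose in both lines (0.94, 0.00152, and 0.76, 0.013), the second not passing without wild-type library 2 or 3 or knockout library 2 of MiaPaCa2 (0.59 to 0.63). RHEB, the GTPase that activates mTORC1, fell in Panc1 from 60.9 to 41.5 FPKM (-0.54, limma adjusted p = 4.2e-07). The Rag GTPase gene RRAGD rose in MiaPaCa2 from 8.08 to 15.3 FPKM (0.86, 2.8e-04), and RRAGC rose there too (0.47, 7.9e-04).

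The split of calls in Panc1 depends on how libraries are scaled. As deposited 2910 genes were called higher and 5556 lower (65.6% of calls lower), against 4042 and 4132 after median-ratio scaling (50.6%), 3940 and 4263 after quantile normalization (52.0%) and 2315 and 6525 with libraries rescaled to 1 sum (73.8%). The median Panc1 difference of the 10 stress genes was 1.35, 1.28 and 1.18 under these 3 scalings, and that of all genes -0.01, -0.02 and -0.18.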

How the data were processed

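RNA of 12 libraries (4 groups of 3) was measured by RNA-seq on a BGISEQ-500, per the labels' protocols. The authors, per the submitters' processing notes and design text, trimmed and filtered reads, aligned them to hg19 with TopHat2 2.0.14 and calculated FPKM with STAR 2.5.2a. Each deposited file holds 1 library's FPKM by gene symbol and no counts, so a count test and counting intervals are not given. Strand use and the treatment of reads with several places are not stated in the sources.

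A gene missing from a library was taken as 0. FPKM + 1 was put on the log2 scale and fitted with limma 3.58.1 (R 4.3.3), 1 mean per group over all 12 libraries (8 residual degrees of freedom), with moderated variances that follow a trend with the mean. Tests were two-sided, and p-values were adjusted by Benjamini and Hochberg's method over the 13340 genes that averaged 1 FPKM or more in the 6 libraries of either line. On simulated data for the Panc1 contrast, 189 of 200 genes shifted by 1 on the log2(FPKM + 1) scale were recovered with 7 false calls over 13130 genes. The simulation drew the noise of each gene independently and changed far fewer genes than were called in Panc1. It therefore checks the fit and does not vouch for those calls. The 10 genes and all lists were chosen with earlier results of these data known. Named are the 10 genes, ASAP2, up to 3 called genes each way per list and contrast (largest difference, no overlap, at least 1 FPKM), paralogs, and the 5 genes most like ATF4 and CHAC1. Other genes named for a role, among them AARS, SARS, MARS, PHGDH, PSAT1, HSPA5, SQSTM1, EIF2AK3 and EIF2AK4 in places, the markers, and the 4 genes of the amino acid list that did not pass, were chosen after their values were seen. Positions came from GENCODE release 44 mapped to GRCh37, promoters from RefSeq on GRCh38.p14. The alternatives were a pseudocount of 0.1, no filter or one of 5 FPKM, 3 other scalings, no trend, array weights, genes above 0 in all libraries, each line alone, a replicate block and each library left out. Some marker genes are not reported here.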

Additional observations from a re-analysis of the deposited data

Results flagged for a closer look

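For 6 genes of the pathway lists, none of them among the 10, the knockout difference passed the threshold in opposite directions in the lines, with no overlap between knockout and wild-type libraries in either, at least 5 FPKM in a group, and a difference between the lines of at least 1 on the log2 scale. The Panc1 minus MiaPaCa2 value was 1.51 for WARS (0.57 in Panc1, -0.94 in MiaPaCa2, limma adjusted p of the difference 4.2e-07) and 1.47 for MTHFD2 (1.11 and -0.36, 1.2e-06). It was 1.28 for JUND (0.88 and -0.40, 4.9e-06), 1.10 for PYCR1 (0.89 and -0.21, 3.8e-08) and 1.07 for KLF2 (0.82 and -0.25, 1.7e-05). The MiaPaCa2 fall of KLF2 was lost in 11 of 23 alternatives, for example at -0.19 (limma adjusted p = 0.112) under quantile normalization. DNAJB9 alone of the 6 went the other way, at -1.05 (-0.51 and 0.53, limma adjusted p = 2.8e-05). Of the 6, 3 belong to the amino acid and tRNA charging list, of whose 34 tested genes 30 were called higher in Panc1. The share of all genes tested that meet these conditions was not computed. Nothing is therefore read from the count of 6 or from that of 3.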

How the results depend on the processing

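Of the values of the 10 genes under the alternatives, 227 of 230 in Panc1 and 224 of 230 in MiaPaCa2 kept their direction and side of the threshold, as did 206 of 220 for the difference between the lines and 212 of 220 between the wild-type lines. PPP1R15A in Panc1 passed under median-ratio scaling (0.28), quantile normalization (0.30) and without knockout library 3 (0.31). In MiaPaCa2 its call was lost with no filter and without wild-type library 1 or knockout library 1 or 3 (0.28 to 0.37), and that of NUPR1 without wild-type library 2 (0.75) or 3 (0.67). The difference between the lines changed sign for DDIT3 (-0.06) under median-ratio scaling (0.082) and quantile normalization (0.012) and with a library left out (-0.16 to 0.084), and for NUPR1 (0.10) with a pseudocount of 0.1 (-0.12), on the rescaled sum (-0.10) and with a library left out (-0.18 to 0.33). Between the wild-type lines ATF3 turned to -0.088 under quantile normalization and TRIB3 to 0.037 on the rescaled sum, and the calls of CEBPB and DDIT4 were lost under the alternatives named above. The cause of these changes was not tested. Same-numbered libraries did not deviate together (r = 0.02, 0.03 and 0.08 in Panc1, -0.13, -0.17 and 0.00 in MiaPaCa2), and the replicate block gave 2900 genes higher and 5544 lower in Panc1 and 2340 and 2127 in MiaPaCa2, against 2910 and 5556, and 2373 and 2172, without it. The count of amino acid and tRNA charging genes called higher, recomputed under alternatives chosen after seeing the data, ran from 27 to 32 in Panc1, 7 to 15 in MiaPaCa2 and 24 to 31 for the difference. Depth is unknown, so values near 0 are not detection limits. Only 5 to 11 symbols per library were listed at 0, so nearly every 0 is a missing gene taken as 0.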
